A study of Mus musculus with 4 samples.

Results

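Dapl1, Igfbp4, Il6ra, Fcgrt, Nsg2 and Pik3ip1 are 6 of the 17561 genes in the count table, and they were chosen by their levels in these same cells as less known genes of naive CD8+ T cells. The level in the cluster named Tn (naive T cells) is therefore what selected them, so all levels by cluster are given as a description and no test between clusters was made. Each gene was matched by its symbol to a single gene identifier of the table, and all 6 were found. How far each one was still found outside Tn, in which cells, and beside which TCR clones is described here.

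CD8+ T cells had been purified by sorting out of mouse BM 4 weeks (day 28) after stem cell transplantation (SCT). Recipients and donors of the BM and T cells were matched female mice on the C57BL/6 background, wild type or CRBN transgenic, and the recipients bore the Vk12653 myeloma. CRBN mice carry a modified cereblon that lets lenalidomide act, and the labels do not say which genotype a library holds. There were 4 treatment groups, each a single library of 5 pooled mice: isotype control antibody (cIg), αTIGIT, lenalidomide, and αTIGIT + lenalidomide, with antibody from the day of transplantation and lenalidomide or vehicle from day 14. The cell table numbers the libraries 1 to 4 and names no treatment for any of them. Values are therefore listed by library number, no treatments are compared, and there are no replicates of a group.

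A naive CD8+ T cell has not met its antigen. It recirculates through lymphoid tissue with the homing receptor CCR7, depends on IL-7, and is held quiet by FOXO1, KLF2 and TCF-1 family factors. Upon activation these programs are turned down, the cell divides into a clone that shares a single TCR, and its progeny become effector, memory or exhausted cells. The 6 genes have unlike roles. Il6ra encodes the ligand-binding chain of the IL-6 receptor, and Fcgrt the neonatal Fc receptor chain that pairs with β2-microglobulin to recycle IgG and albumin. Igfbp4 encodes a secreted binding protein of insulin-like growth factors, Pik3ip1 a membrane protein that inhibits PI3K, Nsg2 an endosomal protein best known from neurons, and Dapl1 a small protein named for its likeness to death-associated protein.

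The table held 11754 cells in 4 libraries of 4237, 2003, 1725 and 3789 cells, with 15556967 to 38440687 UMIs per library and a median of 7115 to 7669 UMIs per cell. A UMI (unique molecular identifier) stands for 1 captured RNA molecule, and levels are UMIs of a gene per 1000000 UMIs of the cells named (CPM). Intervals are exact at the 95% level and cover counting error only. Tn held 1342 cells, 305 to 384 in a library. A TCR was called in 67.7% of cells, 41% to 85.5% by cluster. Among the cell barcodes, 56 occurred in more than 1 library. No cells were removed as doublets here, and of the Tn cells with a TCR, 5.32% had more than 1 TRB chain, against 15.8% in GzmA+ Tex.

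The label Tn was checked against the naive markers Ccr7, Lef1, Tcf7, Il7r and S1pr1. Each was at its highest level in Tn, Ccr7 at 226 CPM against 4.69 to 63.8 in the other clusters and Il7r at 395 against 17.1 to 139 CPM, so the label held. In the cluster named Tcm (central memory), Ccr7 was at 26.3 and Il7r at 25.5 CPM, whereas Tcf7 was at 159 CPM against 221 in Tn. The listed NK markers were all higher in Tcm than in Tn, Klrb1c at 242 against 10.5 CPM, Eomes at 159.5 against 105 and Ncr1 at 4.92 against 0. Fcer1g was at 263 against 11.3 CPM. Cd8b1 was at 217 CPM in Tcm against 1165 in Tn, and Cd8a at 328 against 384. The name Tcm is that of the authors, and its cells thus carried NK receptor transcripts. Cd4 had no UMI in Tn or Tcm.

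The genes lie on 4 chromosomes of GRCm38 (mm10), and each is protein coding. Dapl1 (ENSMUSG00000026989) is at chr2:59484653-59505020 on the + strand. Il6ra (ENSMUSG00000027947) is at chr3:89864059-89913196 on the - strand and Fcgrt (ENSMUSG00000003420) at chr7:45092990-45103851 on the - strand. Pik3ip1 (ENSMUSG00000034614), Nsg2 (ENSMUSG00000020297) and Igfbp4 (ENSMUSG00000017493) are all on the + strand of chromosome 11, at chr11:3330401-3342971, chr11:32000463-32059202 and chr11:99041244-99054392. Annotated RNAs on the opposite strand overlap Il6ra (Gm42809), Fcgrt (Gm45669) and Pik3ip1 (Gm12592), and whether the counting used strand is not given in the sources used here.

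The stretches before the start sites of 5 of the genes are shown because 4 of them (Dapl1, Igfbp4, Il6ra, Fcgrt) were the most alike in level across the clusters, and Nsg2 differed from them in Tcm. They are RefSeq sequences of GRCm38.p6, read 5′ to 3′ on the gene's strand, and capitals mark the forkhead (FOXO) motif GTAAACA. The Fcgrt window is chr7:45103852-45104072 and ends before the earliest annotated start. The others are the 250 bases before the RefSeq start, at chr2:59484403-59484652 (Dapl1), chr11:99040994-99041243 (Igfbp4), chr3:89913197-89913446 (Il6ra) and chr11:32000169-32000418 (the first of 2 Nsg2 starts).
Dapl1: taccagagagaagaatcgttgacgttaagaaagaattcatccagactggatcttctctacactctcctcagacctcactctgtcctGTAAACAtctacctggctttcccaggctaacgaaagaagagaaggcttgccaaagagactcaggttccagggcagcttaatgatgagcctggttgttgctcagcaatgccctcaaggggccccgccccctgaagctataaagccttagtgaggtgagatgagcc
Fcgrt: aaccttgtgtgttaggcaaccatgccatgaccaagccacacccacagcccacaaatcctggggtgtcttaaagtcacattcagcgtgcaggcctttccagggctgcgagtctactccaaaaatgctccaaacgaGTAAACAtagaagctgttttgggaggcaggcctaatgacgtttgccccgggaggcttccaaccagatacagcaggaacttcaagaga
Igfbp4: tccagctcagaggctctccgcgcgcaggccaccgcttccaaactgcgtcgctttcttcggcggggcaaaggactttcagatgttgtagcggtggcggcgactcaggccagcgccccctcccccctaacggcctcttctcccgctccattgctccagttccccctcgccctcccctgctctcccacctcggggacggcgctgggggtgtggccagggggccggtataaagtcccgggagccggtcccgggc
Il6ra: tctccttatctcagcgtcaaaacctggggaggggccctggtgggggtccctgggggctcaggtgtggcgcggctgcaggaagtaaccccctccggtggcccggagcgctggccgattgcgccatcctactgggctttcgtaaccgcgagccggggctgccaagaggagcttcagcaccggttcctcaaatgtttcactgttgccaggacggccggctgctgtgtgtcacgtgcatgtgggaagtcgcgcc
Nsg2: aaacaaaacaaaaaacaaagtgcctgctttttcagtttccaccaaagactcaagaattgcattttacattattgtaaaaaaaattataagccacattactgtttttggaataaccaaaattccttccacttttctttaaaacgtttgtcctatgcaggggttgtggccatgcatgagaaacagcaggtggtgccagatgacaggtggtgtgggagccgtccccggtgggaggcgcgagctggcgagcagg
The motif GTAAACA, searched on both strands, was found in the 250 bases before the start of Dapl1 (first base 164 bases before the start) and of Fcgrt (116 bases before). It was in 2.37% of the 15812 such windows of genes in the table. No match was found in the windows of Igfbp4, Il6ra, Nsg2 or Pik3ip1. The TCF/LEF letters CTTTGA and the ETS letters CGGAAG were in none of the 7 windows of the 6 genes, against 11.3% and 21.8% of all windows. The KLF letters CACCC were in the windows of Igfbp4, Fcgrt, Pik3ip1 and the second Nsg2 start, and in 57.5% of all windows. These matches are letters in a window and describe no binding.

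In Tn, all 6 genes were at their highest level in each of the 4 libraries. For 5 of them no library of another cluster reached the lowest Tn library, and Igfbp4 was the exception, with 35.3 CPM in GzmA+ Tex of library 3 against 34.2 CPM in Tn of library 4. Dapl1 was at 241, 222, 214 and 234 CPM in Tn of libraries 1 to 4. Nsg2 was at 144, 133, 130 and 130.3 CPM there, and Il6ra at 55.1, 51.1, 54.0 and 47.2 CPM. These 3 genes varied little between libraries. Fcgrt was at 87.6, 55.1, 57.7 and 67.2 CPM, with library 1 the highest. Pik3ip1 was at 62.9, 66.3, 85.3 and 61.8 CPM, and Igfbp4 at 39.9, 44.4, 85.3 and 34.2 CPM, both highest in library 3. For Igfbp4, 1 cell of library 3 held 37 of the 229 UMIs, and without this cell the level was 71.8 CPM, still above the other libraries.

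**Figure D1:**
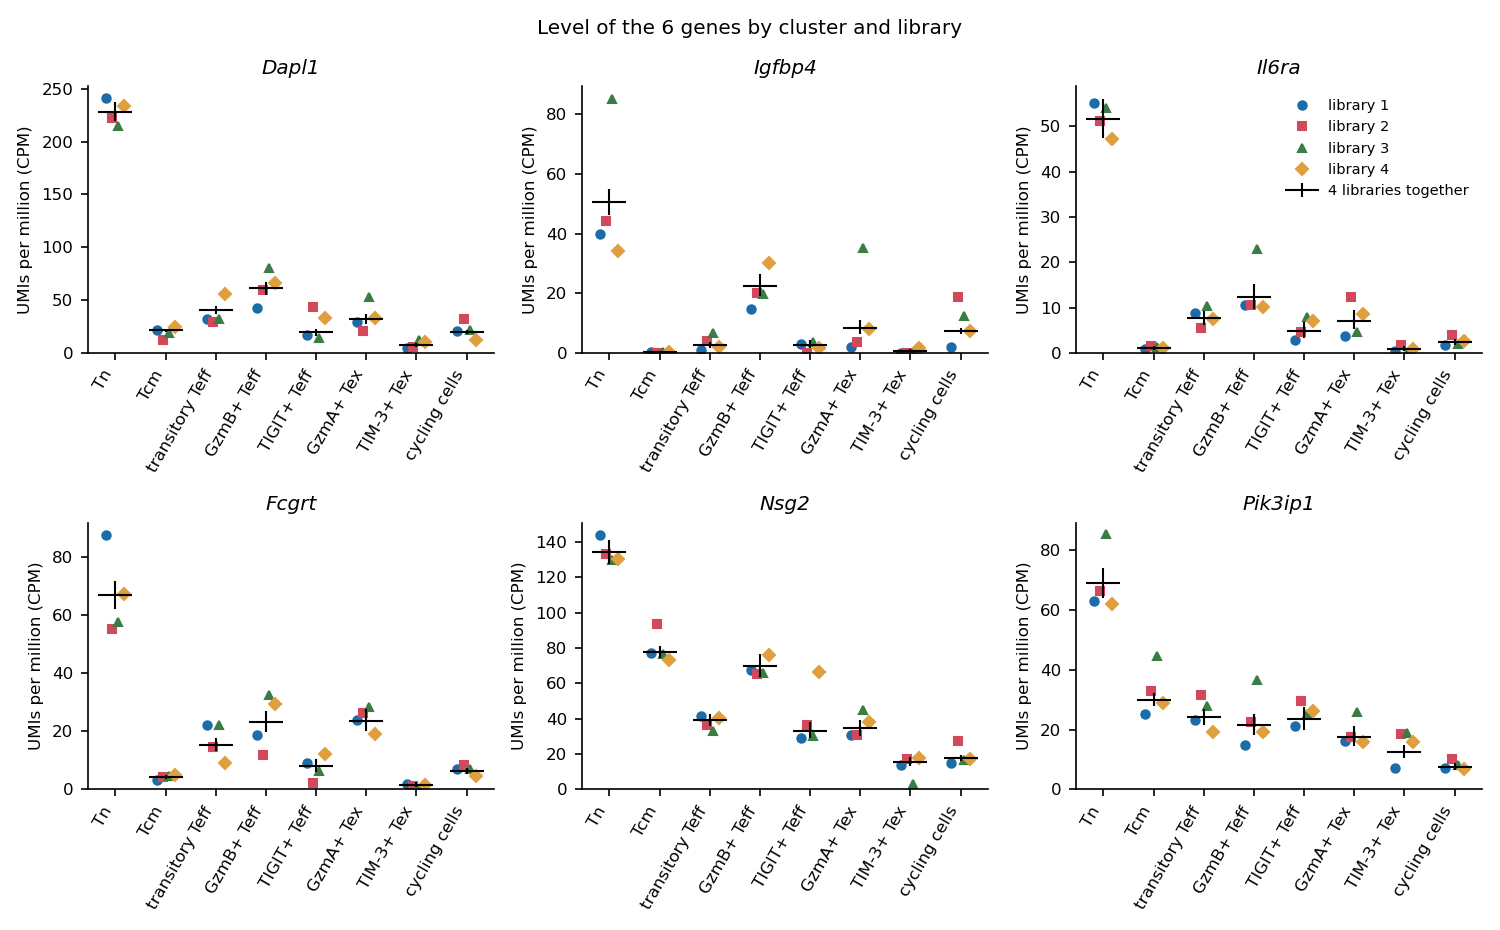
Level (UMIs per 1000000, linear axis from 0) of each gene in the 8 clusters. Coloured points are the 4 libraries, and the black bar with its line is the level over all libraries with its exact 95% Poisson interval. All 6 genes are highest in Tn. In Tcm, Igfbp4, Il6ra and Fcgrt lie near 0, Dapl1 is at 12.1 to 24.2 CPM and Nsg2 at 73.4 to 93.6 CPM.

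Igfbp4 and Il6ra had like levels in Tn (50.5 and 51.7 CPM) but were spread over cells in unlike ways. Igfbp4 was detected in 15.7% of Tn cells (13.8 to 17.8), and Il6ra in 29.7% (27.2 to 32.2). The Tn cells that had Igfbp4 held 2.61 UMIs of it on average and up to 37, against 1.41 and at most 5 UMIs for Il6ra. Dapl1 was in 47.5% of Tn cells with 3.90 UMIs on average, and 15.1% of Tn cells had 5 or more Dapl1 UMIs. Nsg2 was in the most cells of Tn, 61.0% (58.3 to 63.6), with 1.79 UMIs on average. Thinned to 2500 UMIs per cell, the shares were 31.7% for Dapl1, 29.4% for Nsg2, 17.3% for Pik3ip1, 15.6% for Fcgrt, 11.8% for Il6ra and 7.90% for Igfbp4. The share of Igfbp4 varied most between libraries after thinning, from 4.17% in library 4 to 13.4% in library 3.

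Free RNA was not measured separately, and no empty droplets were used. Low levels were found in the 533 TIM-3+ Tex cells (terminally exhausted, TIM-3-bearing cells) that belonged to expanded clones. These cells held 2 UMIs of Dapl1, 2 of Fcgrt and none of Igfbp4 or Il6ra, which is 0.590 CPM for Dapl1 and Fcgrt. Nsg2 was at 1.48 CPM and Pik3ip1 at 7.67 CPM in them. Of these cells, 97.2% had none of the 6 genes at 2500 UMIs per cell. In all TIM-3+ Tex cells, which had a median of 8434 UMIs against 7834 in Tn, 3.13% had a Dapl1 UMI, 0.379% an Igfbp4 UMI and 0.568% an Il6ra UMI. In the 481 TIM-3+ Tex cells without a TCR, Dapl1 was at 11 CPM, Igfbp4 at 0.927, Il6ra at 1.24, Fcgrt at 2.16, Nsg2 at 22.2 and Pik3ip1 at 14.5 CPM, so the level differed within the cluster.

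The sharpest split among the genes was in Tcm. Dapl1, Igfbp4, Il6ra and Fcgrt were nearly absent there, whereas Nsg2 and Pik3ip1 were not. Igfbp4 had 5 UMIs in 3418 Tcm cells (2, 0, 1 and 2 by library), which is 0.195 CPM (0.0634 to 0.455). Il6ra was at 0.926, 1.48, 1.33 and 1.04 CPM in Tcm of libraries 1 to 4, and Fcgrt at 3.13, 4.44, 4.65 and 4.91 CPM. Dapl1 was at 22.0, 12.1, 18.6 and 24.2 CPM. The log2 ratio of Tcm to Tn was -8.01 for Igfbp4 (-9.64 to -6.78), -5.56 for Il6ra (-6.17 to -5.02), -3.99 for Fcgrt (-4.29 to -3.69) and -3.42 for Dapl1 (-3.56 to -3.29). In cells thinned to 2500 UMIs it was -7.24 for Il6ra and -4.65 for Fcgrt. Igfbp4 and Il6ra were thus no higher in Tcm than in the TIM-3+ Tex cluster beyond counting error, where they were at 0.586 CPM (0.215 to 1.28) and 0.781 CPM (0.337 to 1.54).

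Nsg2 was at 77.2, 93.6, 76.7 and 73.4 CPM in Tcm, 58.0% of its level in Tn (54.2 to 62.1). Pik3ip1 was at 25.4, 32.9, 44.5 and 28.8 CPM in Tcm, 43.5% of its level in Tn (39.3 to 48.2). For both genes Tcm was the cluster next to Tn in the order of levels, although for Nsg2 its interval and library range overlapped those of GzmB+ Teff. Tcm held 36.3% of all Nsg2 UMIs and 29.9% of those of Pik3ip1, beside 24.2% of all UMIs in the data, but 0.494% of those of Igfbp4 and 3.05% of those of Il6ra. The log2 ratio of Tcm to Tn was -0.79 for Nsg2 (-0.88 to -0.69) and -1.20 for Pik3ip1 (-1.35 to -1.05).

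**Figure D2:**
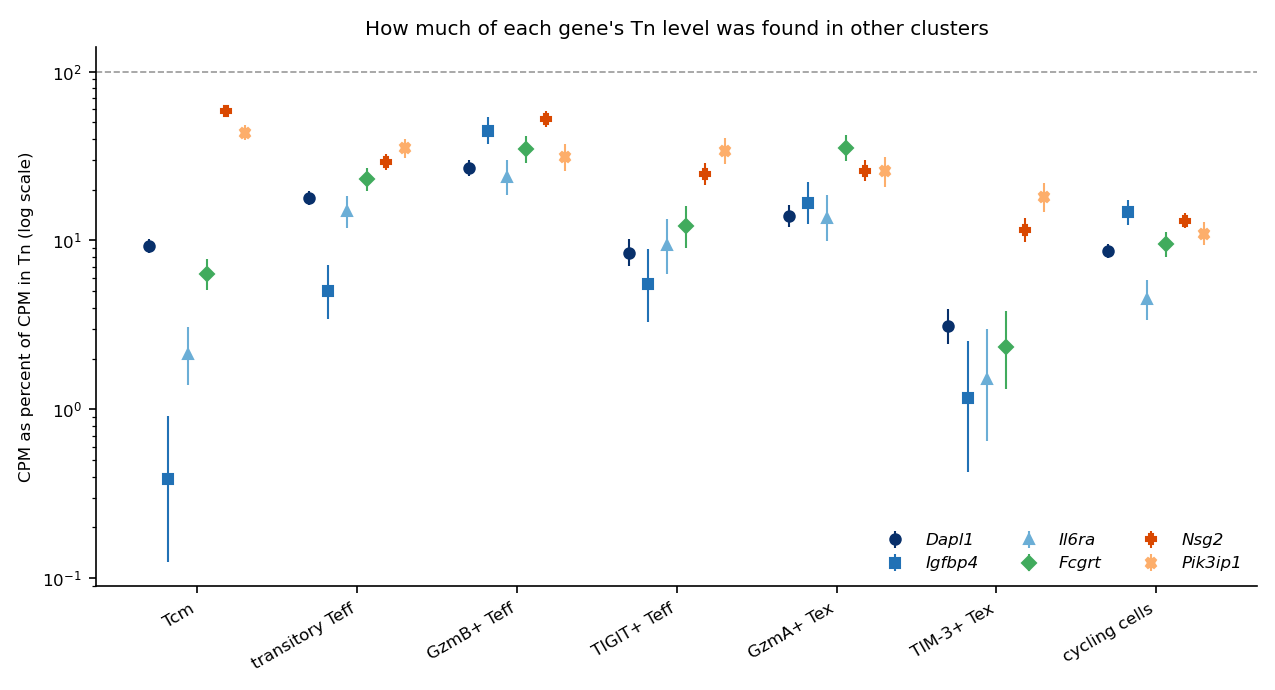
Level of each gene in 7 clusters as percent of its level in Tn (log axis, 4 libraries together), with exact 95% intervals for counting error. In Tcm, Nsg2 (58.0%) and Pik3ip1 (43.5%) stand apart from Dapl1 (9.31%), Fcgrt (6.30%), Il6ra (2.11%) and Igfbp4 (0.387%). In GzmB+ Teff this split is absent, with Igfbp4 (44.7%) and Fcgrt (34.6%) above Pik3ip1 (31.2%).

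Of the clusters other than Tn, GzmB+ Teff (granzyme B-bearing effector cells) had the highest level of Dapl1, Igfbp4 and Il6ra over the 4 libraries together. Dapl1 was at 42.7, 59.8, 80.6 and 66.3 CPM there, above transitory Teff in 4 of 4 libraries. Igfbp4 was at 14.9, 19.9, 19.9 and 30.3 CPM, and Il6ra at 10.5, 10.6, 23.0 and 10.2 CPM. Relative to Tn these were 26.8% for Dapl1 (24.0 to 29.8), 44.7% for Igfbp4 (37.0 to 53.7) and 23.8% for Il6ra (18.6 to 30.1). GzmA+ Tex was above GzmB+ Teff for Igfbp4 in library 3 (35.3 CPM) and for Il6ra in library 2 (12.4 CPM). In library 4 the Igfbp4 level of GzmB+ Teff came close to that of Tn (30.3 against 34.2 CPM). Compared with Tcm, GzmB+ Teff had 2.88 times more Dapl1 (2.52 to 3.28), 11.2 times more Il6ra (7.22 to 17.9) and 5.50 times more Fcgrt (4.27 to 7.10), higher in 4 of 4 libraries for each. For Igfbp4 the ratio was 116 (48.4 to 361) and rests on the 5 UMIs in Tcm. Nsg2 went the other way and was 0.90 times its Tcm level (0.811 to 0.997), higher in 1 of 4 libraries.

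In transitory Teff, named as effector cells in passage, Fcgrt was at 22.1, 14.5, 22.1 and 9.11 CPM and Il6ra at 8.73, 5.60, 10.3 and 7.49 CPM. Both lay above Tcm in every library. Dapl1 was at 32.5, 29.3, 31.7 and 56.1 CPM, with library 4 the highest. Igfbp4 was low, at 0.818, 3.95, 6.63 and 1.82 CPM. Pik3ip1 kept 35.1% of its Tn level (30.6 to 40.1), and Nsg2 29.2% (26.3 to 32.3).

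In the order of Pik3ip1 levels, the 4 clusters after Tcm (transitory Teff at 24.2, TIGIT+ Teff at 23.4, GzmB+ Teff at 21.5 and GzmA+ Tex at 17.6 CPM) each overlapped with the next in counting interval or in library range. Transitory Teff lay below Tcm in 4 of 4 libraries, with a log2 ratio of -0.31 (-0.51 to -0.12). For Nsg2, transitory Teff, GzmA+ Tex and TIGIT+ Teff (39.1, 34.7 and 33.2 CPM) likewise overlapped. For Dapl1, Tcm, cycling cells and TIGIT+ Teff could not be set in order (21.2, 19.8 and 19.3 CPM). In TIGIT+ Teff the libraries differed widely for Dapl1 (16.9, 43.3, 14.2 and 33.1 CPM) and Nsg2 (28.9, 36.5, 30.5 and 66.2 CPM), with 50 cells in its smallest library. TIM-3+ Tex had the lowest level of Dapl1, Il6ra, Fcgrt and Nsg2, Tcm the lowest of Igfbp4 and cycling cells the lowest of Pik3ip1. At this low end Igfbp4 and Il6ra did not separate Tcm from TIM-3+ Tex, nor Nsg2 cycling cells from TIM-3+ Tex.

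After Tn, Fcgrt was highest in GzmA+ Tex (granzyme A-bearing exhausted cells, 23.6 CPM) and GzmB+ Teff (23.2 CPM), which did not separate. In GzmB+ Teff the libraries were at 18.6, 12, 32.4 and 29.5 CPM. In GzmA+ Tex Fcgrt was at 24.0, 26.3, 28.3 and 19.0 CPM, 35.3% of its Tn level (29.5 to 42.1), and 19.8% of its cells had a UMI (16.6 to 23.3). GzmA+ Tex also held transcripts of macrophages, in which Fcgrt is active. All 10 macrophage markers of the list were detected in it, and their summed level was 1980 CPM (1547 to 2282 by library) against 27.7 CPM (23.2 to 35.5) in Tn. In the other clusters the sum was 72.6 to 433 CPM, highest in Tcm, where Fcer1g alone was at 263 CPM and Lyz2 at 1.17. Only 38 GzmA+ Tex cells had under 2 macrophage UMIs, and in them Fcgrt was at 12.2 CPM from 3 UMIs (2.52 to 35.8). The part of macrophage RNA in the Fcgrt level was not tested further. GzmB+ Teff cells with 2 or more UMIs of these markers had Fcgrt at 9.50 CPM (5.72 to 14.8). The rest of GzmB+ Teff had it at 29.2 CPM (24.4 to 34.6). In that cluster Fcer1g (73.3 CPM) and Tyrobp (64.7 CPM) made up most of the marker sum of 177 CPM, and Lyz2 was at 3.53 CPM. The split in GzmB+ Teff therefore says little of macrophage RNA.

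As background, genes were called lower in a cluster when they were at least 2 times below Tn in each of the 4 libraries. In Tcm 0.329% of the 7604 genes with at least 10 CPM over all cells were called, in the 5 Teff and Tex clusters together 0.408%, and in cycling cells 1.17%. Only 4 of the 6 members reached 10 CPM, since Igfbp4 (9.54 CPM) and Il6ra (8.66 CPM) fell just below. Over the 10923 genes with at least 1 CPM, the shares were 0.897%, 0.806% and 2.05%. There 4 of 6 members were called in Tcm (Dapl1, Igfbp4, Il6ra, Fcgrt), and 6 of 6 in both the Teff and Tex clusters and in cycling cells. Pik3ip1 missed the call in Tcm through library 3 alone, and Nsg2 was less than 2 times below Tn in all 4. The members were chosen by these levels, so the counts describe them and nothing is read from the difference to the background. The median log2 ratio to Tn was -3.71 for the members in Tcm, -2.59 in the Teff and Tex clusters and -3.29 in cycling cells, beside 0.13, 0.30 and 0.38 over all genes with at least 10 CPM.

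The 5 Teff and Tex clusters together kept 13.7% of the Tn level of Dapl1 (log2 ratio -2.87, interval -2.97 to -2.77), 12% of Igfbp4 (-3.06, -3.28 to -2.84) and 12% of Il6ra (-3.06, -3.27 to -2.84). Fcgrt kept 20.1% (-2.32, -2.48 to -2.16), Nsg2 27.3% (-1.87, -1.98 to -1.77) and Pik3ip1 28.7% (-1.80, -1.94 to -1.65). Dapl1, Igfbp4 and Il6ra were thus the least kept in these cells, and Nsg2 and Pik3ip1 the most. With 1 cell per clonotype the log2 ratios were -1.80 for Igfbp4, -2.33 for Il6ra, -1.44 for Fcgrt and -1.19 for Nsg2.

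Few cells outside Tn carried several of the genes. Each cell was thinned to 2500 UMIs, so that depth was equal, and the genes with a UMI were counted. In Tn 9.39% of cells had 3 or more of the 6 genes (7.88 to 11.1) and 30% had none. GzmB+ Teff followed with 1.78% (0.949 to 3.02), at 1.57%, 0%, 3.70% and 2.22% in libraries 1 to 4. In transitory Teff it was 0.317% (0.117 to 0.689), and in Tcm 1 cell of 3418. Tcm had 1 gene in 24.6% of cells and 2 in 2.55%, most of it Nsg2, which was found in 17.4% of Tcm cells at this depth. TIM-3+ Tex had no such cell among 1056 (0 to 0.349%). At full depth the share with 3 or more genes was 42.0% in Tn, 12.4% in GzmB+ Teff and 1.49% in Tcm.

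**Figure D3:**
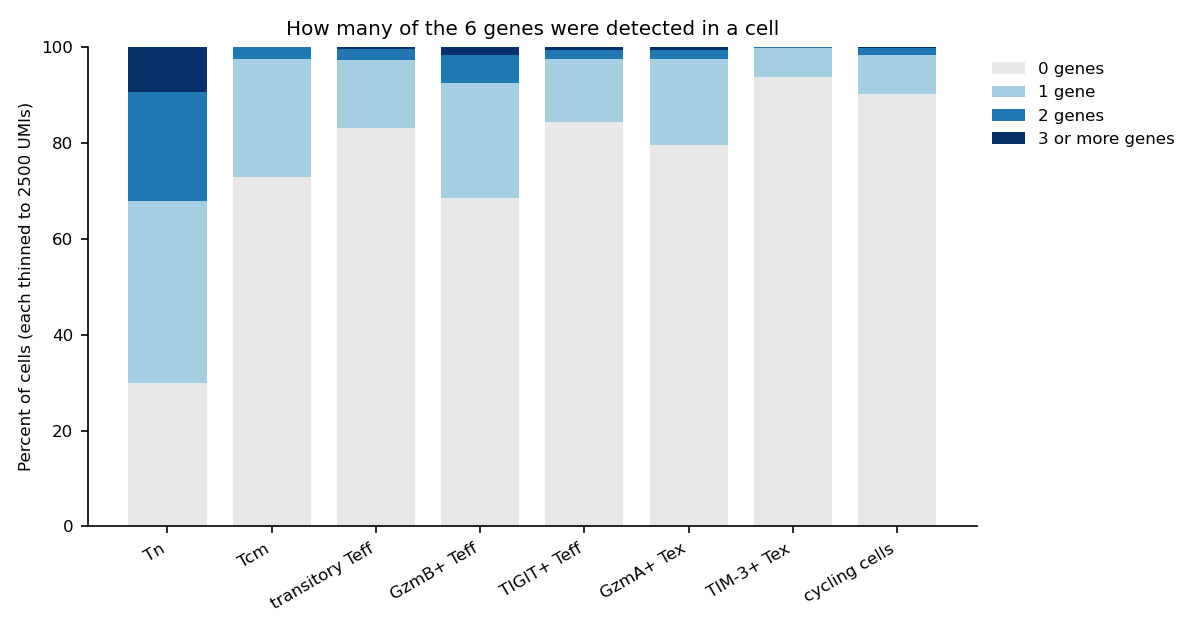
Percent of cells in each cluster with 0, 1, 2 or 3 and more of the 6 genes, each cell thinned to 2500 UMIs. Cells with 3 or more genes make up 9.39% of Tn and 1.78% of GzmB+ Teff, and at most 0.701% of any other cluster.

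The TCR sequence was not among the values that chose the genes. Clone size is still tied to that choice, since 1113 of the 1147 Tn cells with a TCR were single clones and Tn-like cells in another cluster would mostly be single clones too, so the values are given as a description. A clone was called expanded when 2 or more cells of a library shared both TCR chains, and single when a cell was alone. With 4 libraries of different treatment and no replicates, no test was made, and the direction in each library is given instead. Outside Tn, 45.1% of the 6814 cells with a TCR belonged to expanded clones, and so did 6.82% of those with Igfbp4 (6 of 88 cells), 13.9% of those with Nsg2, 16% of those with Il6ra, 20.1% of those with Dapl1, 23.2% of those with Pik3ip1 and 25.1% of those with Fcgrt. These shares mix clusters with unlike clone sizes, so single and expanded clones were next compared within a cluster.

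Among GzmB+ Teff cells with a TCR, the 361 single-clone cells held nearly all UMIs of Dapl1, Igfbp4 and Il6ra. The 230 cells without a TCR had 50.1 CPM of Dapl1, 5.44 of Igfbp4 and 7.98 of Il6ra. Dapl1 was at 67.6, 66.2, 109.6 and 99.6 CPM in single clones of libraries 1 to 4, and at 0, 5.87, 0 and 0 CPM in expanded ones, from 1 UMI in 141 cells. With clones called by the TCR beta chain alone, the log2 ratio of Dapl1 was -3.53 in place of -6.08. Igfbp4 was at 29.0, 42.2, 34.6 and 58.2 CPM in single clones and had no UMI in expanded clones. With 3 UMIs put in place of 0 over the group, it was 11.5 times lower in them. Il6ra was at 17.7, 21.1, 32.7 and 13.2 CPM in single clones and also had no UMI in expanded ones, 5.05 times lower in the same way. Nsg2 was 3.91 times lower in expanded clones (2.49 to 6.50), and Fcgrt 3.46 times (1.69 to 8.22), both in 4 of 4 libraries. For Pik3ip1 the ratio was 1.78 and its interval (0.968 to 3.59) included no difference. Median depth was 7733 UMIs in single-clone and 4766 in expanded-clone cells, and at 2500 UMIs per cell Dapl1 was in 13.6% and 0.709% of them.

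**Figure D4:**
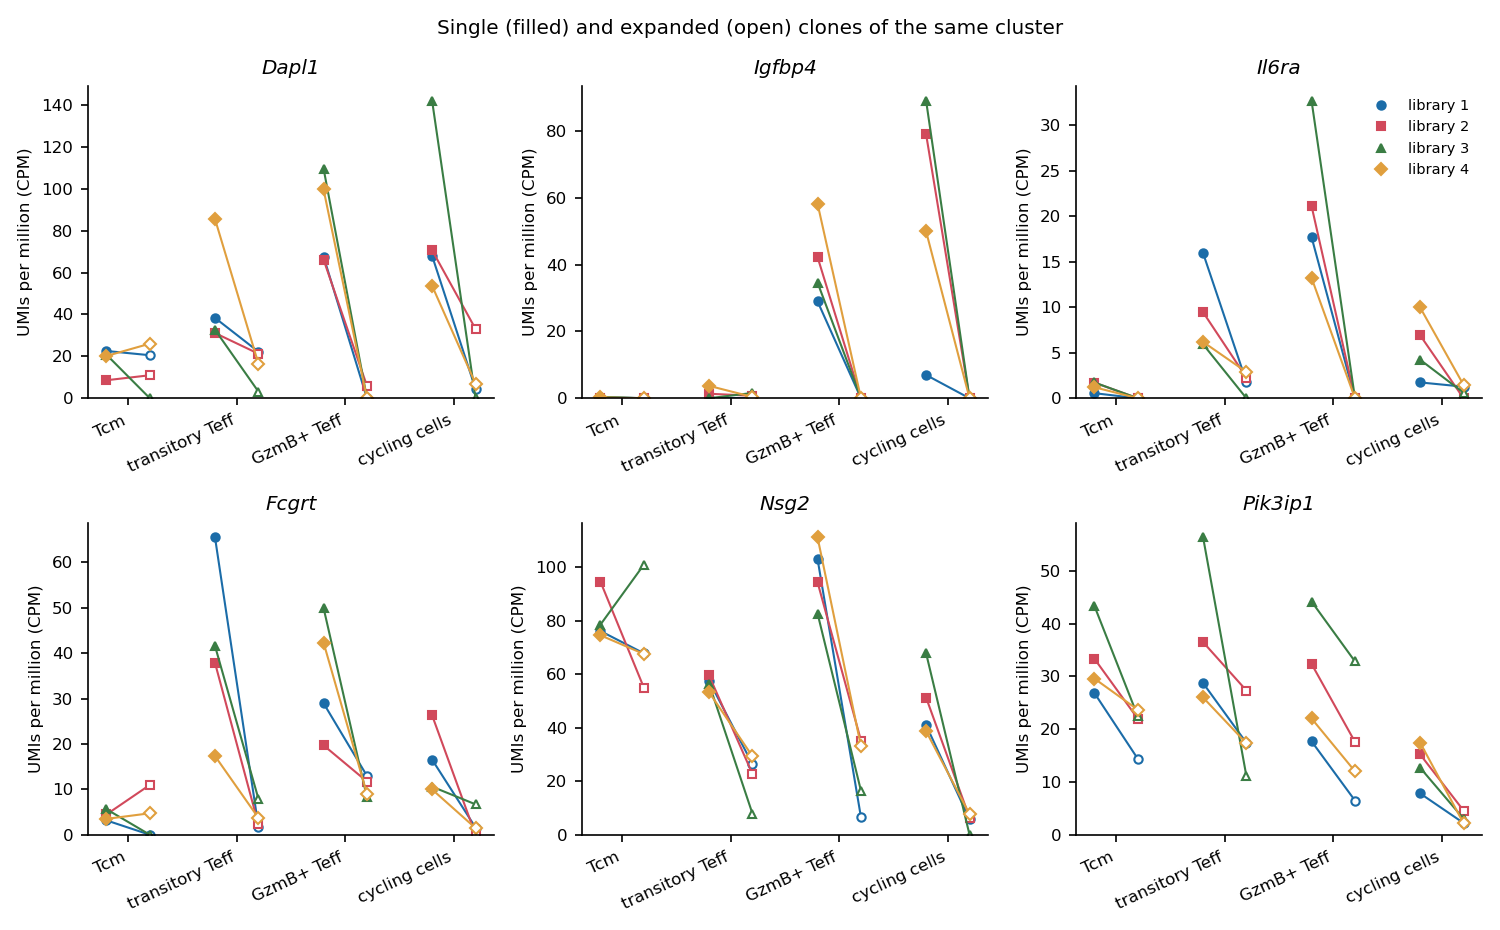
Level (UMIs per 1000000, linear axis) in single clones (filled) and expanded clones (open) of the same cluster and library, joined by lines coloured by library. The lines fall in GzmB+ Teff and cycling cells for all 6 genes and all 4 libraries, and in Tcm they show no common direction except for Pik3ip1 and the few UMIs of Il6ra.

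Among cycling cells, which the authors labelled as cycling exhausted cells (Tex_Cycling), all 6 genes were lower in expanded clones in 4 of 4 libraries. Igfbp4 was at 6.97, 78.9, 89.0 and 49.9 CPM in the 248 single-clone cells, of which 23 had a UMI of it. It had no UMI in the 747 expanded-clone cells, 134 times lower over the 4 libraries with 3 UMIs put in place of 0. Dapl1 was at 67.9, 70.6, 142 and 53.6 CPM in single clones, and at 4.46, 33.1, 0 and 6.98 CPM in expanded ones. Nsg2 was at 40.9, 51.2, 67.8 and 38.7 CPM against 5.74, 6.43, 0 and 7.71 CPM. Dapl1 was 9.46 times lower (7.21 to 12.6) and Nsg2 8.73 times lower (6.23 to 12.4) in expanded clones. The ratios were 6.97 for Fcgrt (4.08 to 12.3), 5.16 for Il6ra (2.18 to 13.1) and 4.75 for Pik3ip1 (2.78 to 8.31). Without library 2 the log2 ratio of Dapl1 was -4.14 in place of -3.24, and without library 3 that of Fcgrt was -3.73 in place of -2.80. Median depth was 12259.5 UMIs in single-clone and 11045 in expanded-clone cells.

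In transitory Teff, Fcgrt differed most with clone size. It was at 65.5, 37.9, 41.6 and 17.4 CPM in the 368 single-clone cells and at 1.80, 2.28, 7.93 and 3.72 CPM in the 1076 expanded-clone cells, 11.7 times lower (7.16 to 19.9). Without the cells that carried the Leiden cluster number of Tn, an alternative added after the data had been seen, its log2 ratio was -2.80 in place of -3.54, that of Il6ra -1.45 in place of -2.15 and that of Pik3ip1 -0.46 in place of -0.84. Il6ra was 4.44 times lower in expanded clones (2.17 to 9.50), Dapl1 2.85 times (2.19 to 3.73), Nsg2 2.28 times (1.80 to 2.88) and Pik3ip1 1.79 times (1.34 to 2.40), each in 4 of 4 libraries. Dapl1 rests largely on library 4 (85.5 against 16.5 CPM), and without it the log2 ratio was -0.88 in place of -1.51. Igfbp4 had 4 and 3 UMIs, too few to compare.

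Tcm did not follow. Its 2482 single-clone and 218 expanded-clone cells held Dapl1 at 19.1 and 21.8 CPM (log2 ratio 0.19, -0.37 to 0.71) and Nsg2 at 78.8 and 68.8 CPM (-0.19, -0.50 to 0.09). Pik3ip1 was at 26.9, 33.4, 43.4 and 29.6 CPM in single clones and at 14.4, 22.0, 22.4 and 23.7 CPM in expanded ones, lower in 4 of 4 libraries by 1.52 times (1.06 to 2.26). The intervals for Dapl1 and Nsg2 leave room for ratios between 0.611 and 1.41 times lower in expanded clones, so that a small difference was not detectable at this depth.

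Tn held 34 cells in expanded clones. Igfbp4 had no UMI in them, 3.71 times lower than in single clones with 3 UMIs put in place of 0. Il6ra had 1, Fcgrt 3 and Dapl1 17 UMIs. In the same cells Nsg2 was at 105.7 CPM against 137 and Pik3ip1 at 62.5 against 69.2 CPM in the 1113 single-clone Tn cells. In GzmA+ Tex, Fcgrt was at 13.4, 30.1, 40.0 and 26.6 CPM in single clones and at 51.4, 32.2, 19.0 and 18.7 CPM in expanded ones. The log2 ratio was 0.38 and its interval (-0.44 to 1.21) included no difference, with 2 of 4 libraries lower in expanded clones and 19 of the 31 expanded-clone UMIs in library 1, while Nsg2 in the same 130 and 104 cells was at 2.23 and 63.1 CPM.

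Calling genes lower in expanded clones by at least 2 times in each library, over genes with at least 1 CPM, gave a background of 0.403% in transitory Teff, 0.897% in cycling cells and 1.85% in GzmB+ Teff. Of the 6 members, 2 were called in transitory Teff (Il6ra, Fcgrt), 4 in cycling cells (Dapl1, Igfbp4, Nsg2, Pik3ip1) and 4 in GzmB+ Teff (Dapl1, Igfbp4, Il6ra, Nsg2). Of 19 listed well known naive T cell genes with at least 1 CPM, 3, 6 and 5 were called in these clusters, Ccr7, Il7r and Satb1 in each. Since the members and this list were chosen from naive cells with these data known, the counts are set side by side without a test.

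Some cells carried a cluster name and a Leiden cluster number that disagreed. Of the 1891 cells named transitory Teff, 66 had the number that most Tn cells had, and in them all 6 genes were higher than in the rest of that name. Dapl1 was at 148 CPM in these cells against 35.1 in the rest, Fcgrt at 82.9 against 12, Il6ra at 38.3 against 6.14 and Igfbp4 at 22.3 against 1.53. They held 42.4% of the Igfbp4 UMIs of the name and 26.0% of those of Fcgrt. Of the Tcm cells, 132 had the number of Tn, with Dapl1 at 53.7 CPM against 19.3 in the rest and Il6ra at 5.51 against 0.827, but Nsg2 at 79.9 against 77.6 and Pik3ip1 at 31.7 against 29.9. Nsg2 and Pik3ip1 thus did not depend on these cells in Tcm.

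The genes most alike to each member were found by Pearson's r of log2(CPM + 10) over 32 sums, 1 for each cluster in each library, which share libraries and have unequal depth. Only genes with at least 10 CPM over all cells were searched, so Igfbp4 and Il6ra could not be listed as matches of another gene. Of the genes searched, Dapl1 was most like Ccr7 (r = 0.928), which encodes the chemokine receptor for lymph node entry. Next were Il7r (0.891), a chain of the IL-7 receptor, and Fcgrt (0.879). Il6ra was most like Dapl1 (0.921), Il7r (0.911) and Fcgrt (0.906). Of the genes searched, Fcgrt and Igfbp4 also had Dapl1 first (0.879 and 0.834), although Fcgrt was more like Il6ra (0.906). Nsg2 was most like Sh3bp5 (0.956) and Klhl6 (0.943), which were at 42.1 and 79.2 CPM in Tcm against 64.1 and 122 in Tn. Pik3ip1 was most like Bbc3 (0.862), which encodes the death-promoting protein PUMA, Sgk1 (0.857), a kinase, and Epb41l4aos (0.856). By Spearman's rho, 0 of these 3 genes were among the 3 most alike to Pik3ip1, and 1 of 3 for Igfbp4. Among the members, r was between 0.801 and 0.921 for the pairs of Dapl1, Igfbp4, Il6ra and Fcgrt, and between 0.497 and 0.758 for their pairs with Nsg2 or Pik3ip1. For Nsg2 with Pik3ip1 it was 0.796.

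The list of well known naive genes held 20 genes, among them Cd44 and Il2rb, which are higher in antigen-experienced cells. Of these, 5 were called at least 2 times lower than Tn in every library in Tcm (Ccr7, Lef1, Il7r, S1pr1, Klf2), 6 in the Teff and Tex clusters and 10 in cycling cells, and none were called at least 2 times higher in every library. Of the 10923 genes with at least 1 CPM, 2.67% were called higher in Tcm, 7.42% in the Teff and Tex clusters and 11.7% in cycling cells. Ccr7 had a log2 ratio of Tcm to Tn of -3.10 and Il7r of -3.96, near Dapl1 and Fcgrt. Tcf7 (-0.47) and Foxp1 (-0.20) were less than 2 times below Tn in Tcm. The median of the list was -0.44 in Tcm, -0.93 in the Teff and Tex clusters and -1.50 in cycling cells.

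Of the IL-6 receptor pathway, 9 of 10 listed genes were in the table, and none was called lower than Tn in any of the 3 comparisons. Il6st, the signal chain that pairs with Il6ra, was at 27.3 CPM in Tn, 29.3 in Tcm and 15 to 49.7 in the Teff and Tex clusters, while Il6ra was at 0.781 to 12.3 CPM in them. The sheddases Adam10 and Adam17 had log2 ratios of 0.84 and 0.80 in the Teff and Tex clusters. Of the 15 genes listed for PI3K, 2 were called lower in Tcm (Klf2 and S1pr1). The catalytic subunit genes Pik3cd (197 CPM in Tn, 201 in Tcm) and Pik3ca (18.0 and 17.1) differed little. Pik3cg was called higher in cycling cells, with a log2 ratio of 1.5.

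Of the 6 genes listed with Fcgrt, 5 were in the table, of which Fcgr2b was called lower in Tcm and in cycling cells, Fcer1g higher in all 3 comparisons and Fcgr3 higher in the Teff and Tex clusters. Its partner B2m was at 2366 CPM in Tn and 2564 to 3191 in the other clusters. The Fc receptor genes Fcgr3 (28.7 CPM) and Fcgr2b (9.82 CPM) had their highest level in GzmA+ Tex, the cluster with macrophage transcripts. Fcgr2b was at 2.66 CPM in Tn and had no UMI in Tcm. Of the 9 listed with Igfbp4, 7 were in the table, none called lower and Igf1 called higher in the Teff and Tex clusters and in cycling cells. Igfbp7 had no UMI in Tn and was at most 1.31 CPM elsewhere. The receptor gene Igf1r was at 1.47 CPM in Tn and 0.117 in Tcm, and Igf2r at 37.4 and 42.0 CPM. Igf1 was at 18.7 CPM in GzmA+ Tex and at most 2.96 elsewhere. The stromal markers, cells of which also make Igfbp4, summed to 0.184 CPM in Tn (0 to 0.391 by library), with 3 of the 4 markers in the table at 0. The relatives of Nsg2 and Dapl1 did not follow them. Nsg1 had no UMI in Tn, and Clta was called in neither direction. Dap was at 70.7 CPM in Tn and 172.6 in cycling cells, and Dapk2 was called higher in the Teff and Tex clusters (log2 ratio 2.23) and in cycling cells (1.71).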

How the data were processed

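Single-cell 5′ RNA and TCR libraries of sorted CD8+ T cells were analysed. The deposited values are UMI counts per gene and cell, which the authors made with Cell Ranger (7.00 in the submitters' processing notes, genome mm10), with reads downsampled to even depth across libraries and cells kept by UMIs, mitochondrial RNA and expression of Cd3 and Cd8a. The cells of the table held 2502 to 24983 UMIs. Cluster names, Leiden cluster numbers, library numbers and clonotypes were taken from the deposited tables, and 1004 cells of the TCR table had no expression values and were not used. Columns of per-sample values that were not used numbered 0. GENCODE M21 gave symbols for 17534 of 17561 genes.

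UMIs were summed per cluster and library and divided by all UMIs of those cells. Intervals at the 95% level were exact: Poisson for CPM, conditional binomial for ratios and Clopper-Pearson for shares. They cover counting error only. Where a group had no UMI, 3 UMIs over the group were taken as the limit. For shares across clusters each cell was thinned to 2500 UMIs (seed 7). A clonotype was the V and J genes and CDR3 nucleotides of both chains, and it was expanded with at least 2 cells in a library. Each cluster and treatment had 1 library per group, so no test was made. The calculations were checked on simulated data. The members and lists were chosen with earlier results of these data known. Named genes were the 6 members, the fixed lists around each, and the 3 genes with the highest Pearson's r to a member. These 3 were searched among genes with at least 10 CPM over all cells. Alternatives were thinning, equal weight of cells, libraries or clonotypes, clusters by Leiden number, cells with a TCR, removal of cells with UMIs of other cell types or more than 1 TRB chain, clones by TRB alone, other filters, folds and measures of likeness, and each library left out. Python 3.11.15, numpy 2.4.6, scipy 1.17.1 and pandas 2.3.3 were used. Some genes of the lists are not reported here.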

Additional observations from a re-analysis of the deposited data

How the results depend on the processing

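Of 373 values computed under alternatives, 261 stayed within their error and 112 moved beyond it. The sign turned for 3 values that were not called, all of expanded against single clones. They were Igfbp4 in transitory Teff (-1.68, and 0.13 without the cells with the Leiden number of Tn), Dapl1 in Tcm (0.19, and -0.15 without library 4) and Fcgrt in Tcm (-0.21, and 0.25 without library 1). The limits are single libraries per treatment, clusters made from the same counts, few UMIs (5 for Igfbp4 in Tcm), and free RNA and doublets that were not removed. Causes of the moves were not tested. For Tcm to Tn, the log2 ratio of Dapl1 was -3.61 with each cell or each library weighted equally, -3.59 with 1 cell per clonotype and -2.92 without cells with UMIs of other cell types, where Nsg2 was -0.89 and Pik3ip1 -0.84. Cells with UMIs of other cell types numbered 6847 of 11754, so this alternative removes more cells than it keeps. Thinning gave -7.24 for Il6ra and -4.65 for Fcgrt. Igfbp4 had no value with equal libraries, since library 2 held no UMI of it. With a library left out, the ratios ranged from -3.56 to -3.34 for Dapl1 and from -4.16 to -3.67 for Fcgrt. For the Teff and Tex clusters to Tn, thinning gave -3.32 for Dapl1, -2.67 for Fcgrt and -2.25 for Nsg2, and equal cells -3.28 for Dapl1, -3.32 for Il6ra and -2.12 for Nsg2. Cells with a TCR gave -2.99 for Dapl1, -2.61 for Igfbp4 and -2.08 for Fcgrt. Without cells with UMIs of other types Dapl1 was -3.09 and Nsg2 -2.17. With 1 cell per clonotype the values were -2.41 for Dapl1, -1.80 for Igfbp4, -2.33 for Il6ra, -1.44 for Fcgrt, -1.19 for Nsg2 and -1.36 for Pik3ip1. Left-out libraries gave -3.10 to -2.60 for Dapl1, -3.45 to -2.73 for Igfbp4, -3.18 to -2.80 for Il6ra and -1.99 to -1.73 for Nsg2.

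At full depth, cells with 3 or more genes were 42.0% of Tn, 1.49% of Tcm, 4.23% of transitory Teff, 12.4% of GzmB+ Teff, 2.70% of TIGIT+ Teff, 7.71% of GzmA+ Tex, 0.758% of TIM-3+ Tex and 3.16% of cycling cells. At 2500 UMIs per cell, the share in Tcm ranged from 0% to 0.0492% with a library left out. Expanded to single clones in transitory Teff ranged from -1.81 to -0.88 for Dapl1 with a library left out. Without the cells with the Leiden number of Tn, chosen after the data had been seen, Fcgrt there was -2.80, Il6ra -1.45 and Pik3ip1 -0.46. In cycling cells left-out libraries gave -4.14 to -2.70 for Dapl1 and -3.73 to -2.31 for Fcgrt. Genes called lower in Tcm numbered 98 with at least 1 CPM, 9 with at least 50 CPM, 6 at 4 times and 72 at 1.5 times, beside 25. In the Teff and Tex clusters they numbered 88, 11, 3 and 106, beside 31, and in cycling cells 224, 32, 14 and 274, beside 89. By Spearman's rho, 1 of the 3 genes most alike to Igfbp4 and 0 of those for Pik3ip1 remained.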

Other observations

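The few cycling cells with Igfbp4 also carried other naive genes. There were 41 of them, 13, 11, 10 and 7 in libraries 1 to 4, beside 1887 cycling cells without Igfbp4, and none of the 23 with a TCR belonged to an expanded clone. Ccr7 was at 187 CPM in them (155 to 223) against 9.59 in the others (8.44 to 10.9), Il7r at 132 against 20.4 and Satb1, which encodes a chromatin organizer, at 165 against 27.8. Dapl1 was at 193 against 15.6 and Nsg2 at 79.9 against 16 CPM. Of the 20 listed well known naive genes, 13 had an interval above no difference and 3 below it. Mki67, a gene of dividing cells, was at 810 CPM (742 to 883) against 834 (823 to 845), and Gzmb, which encodes granzyme B, at 190 against 538 CPM. Median depth was 16393 UMIs in the cells with Igfbp4 and 13837 in the others, and doublets of a naive and a dividing cell were not tested.

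The 50 GzmB+ Teff cells with Igfbp4 had less Gzmb than the other 682, at 108 CPM (80.8 to 140.3) against 624 (604 to 644), and more Ccr7, at 263 against 47.2 CPM. Of the 20 listed well known naive genes, 8 had an interval above no difference in this cluster and 5 below it. For Tn the counts were 6 and 3. Within Tn, the 211 cells with Igfbp4 had more Itgae, which encodes the αE integrin CD103, at 19.1 CPM (13.1 to 26.8) against 3.27 (2.21 to 4.67) in the 1131 others. Ccr9, which encodes a chemokine receptor of thymus and gut homing, was at 9.82 against 2.73 CPM, from 17 and 25 UMIs. Il6ra was at 89.5 against 44.5 CPM in the same cells, while Fcgrt was at 67.0 against 66.9. In cycling cells, those with Igfbp4 likewise had more Itgae (18.8 against 1.83 CPM) and Ccr9 (23.5 against 2.98 CPM). The 50 GzmB+ Teff cells with Igfbp4 had no UMI of either, and the other 682 had 22 and 4. Mki67, Gzmb, Itgae and Ccr9 were chosen after their values had been seen, and no test was made on these cells.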
